A study of Danio rerio with 6 samples.

Results

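Genes of histone mRNA processing and histone storage were followed in juvenile zebrafish gonads that lack the cap-binding protein eIF4E1b. The 10 members of the set were chosen by symbol in the table of gene names, without regard to case: the stem-loop binding genes *slbp* and *slbp2*, the U7 snRNP genes *lsm10* and *lsm11*, the histone locus genes *npat* and *casp8ap2*, the cleavage genes *cpsf3* and *sympk*, the exonuclease gene *eri1* and the chaperone gene *nasp*. These 10 symbols were carried by 11 of the 32520 genes in the count tables, since *lsm10* named both ENSDARG00000109563 and ENSDARG00000101222. RNA-seq compared 3 wild-type samples (*eif4e1b* +/+) with 3 mutant samples (*eif4e1b* -/-) from siblings, all carrying the transgene *ziwi:GFP*, and every sample pooled 3 gonads. The transgene marks germ cells of either sex through the *piwil1* (ziwi) promoter, and gonads were picked for strong fluorescence. The mutation is a short frameshift deletion in the third exon made with Cas9, and the labels do not say which of the deletion alleles was used. The labels call all samples female ovary, and they do not say whether replicates came from separate days or clutches.

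Most histone mRNAs that are made for DNA replication end in a stem-loop in place of a polyA tail. SLBP binds this stem-loop, while the U7 snRNP pairs with a sequence downstream of it through its RNA and carries the ring proteins Lsm10 and Lsm11. FLASH, encoded by *casp8ap2*, binds Lsm11 and brings in a cleavage complex with the endonuclease Cpsf3 and the scaffold symplekin, and NPAT activates histone genes as a target of cyclin E and its kinase. Oocytes stockpile histones and histone mRNAs for the first cleavages of the embryo. In Xenopus oocytes, SLBP2 accompanies translationally silent histone mRNAs and the homologue of NASP binds stored histones.

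Levels are given as CPM, a gene's counts scaled to a common library size with TMM factors, which correct for RNA composition. Where 3 values follow a genotype, they stand in the order of replicates 1, 2 and 3. CPM values scale with transcript length, so they were compared between samples and not between genes. Libraries held between 11771342 and 13362230 counts in wild-type and between 5539470 and 8233080 in mutant samples. The mutated gene itself, *eif4e1b* (ENSDARG00000014565), held 1391, 1116 and 1386 counts in wild-type samples and 55, 9 and 24 counts in mutants (log2 fold change -4.92, SE 0.55, adjusted p = 0.000601, and -5.67 without mutant replicate 1). Of a list of 17 oocyte markers, all 17 were lower in mutant gonads, and their summed level ranged from 12218 to 16045 CPM in wild-type but from 29.3 to 405 CPM in mutants. Mutant samples labelled as ovary thus held little RNA of these oocyte markers, least in replicates 2 and 3. The paper described strongly fluorescent mutant juvenile gonads as either ovaries or gonads with differentiating sperm. The lists also set wild-type replicate 1 apart, with 313 CPM of summed testis somatic markers against 30.1 and 34.6 CPM in wild-type replicates 2 and 3. Mutant replicate 2 held 181566 CPM of liver markers against 1078 and 23691 CPM in mutant replicates 1 and 3. Wild-type replicate 3 held 4053 CPM of liver markers against 347 and 137 CPM in wild-type replicates 1 and 2. In mutants the testis somatic sum was higher, at 1813, 1146 and 1501 CPM. Of the 8 testis somatic markers tested, 7 were higher and none lower, with a median log2 fold change of 3.39. The ovarian somatic sum was higher too, at 76.4, 56.6 and 73.1 CPM against 29.3 to 31.9 CPM in wild-type samples. Spermatid sums overlapped between genotypes. Exocrine pancreas markers summed to between 41943 and 72585 CPM in mutant and between 99.3 and 398 CPM in wild-type samples.

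Of the 10 genes tested, 8 fell in mutant gonads and none rose, at an adjusted p-value under 0.05 in a quasi-likelihood fit with edgeR, from which all fold changes, their standard errors (SE) and adjusted p-values below were taken. Over all 20091 tested genes, 32.0% were lower and 37.5% were higher by the same rule. No gene of the 10 was higher at an unadjusted p under 0.05 in edgeR, nor at an adjusted p under 0.05 with DESeq2 or limma-voom. The median log2 fold change of the 10 was -1.43, against 0.23 over all tested genes. In 8 of them each mutant value was under the lowest wild-type value, which was the case for 35.4% of all tested genes, while 39.8% had all 3 mutant values above. Their changes spanned a wide range, from a log2 fold change of -6.65 for *slbp2* to 0.44 for *sympk*. The choice of scaling mattered for the smaller changes: scaling by library totals left 4 of the genes lower, and upper-quartile factors left 5. These scalings put the median of all tested genes at 0.65 and 0.92. The share of higher genes among all changed genes was 68.8% and 71.1%, against 53.9% with TMM factors. Of the 20091 tested genes, 3740 and 4001 were lower with these scalings, against 6437 with TMM factors.

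**Figure D1:**
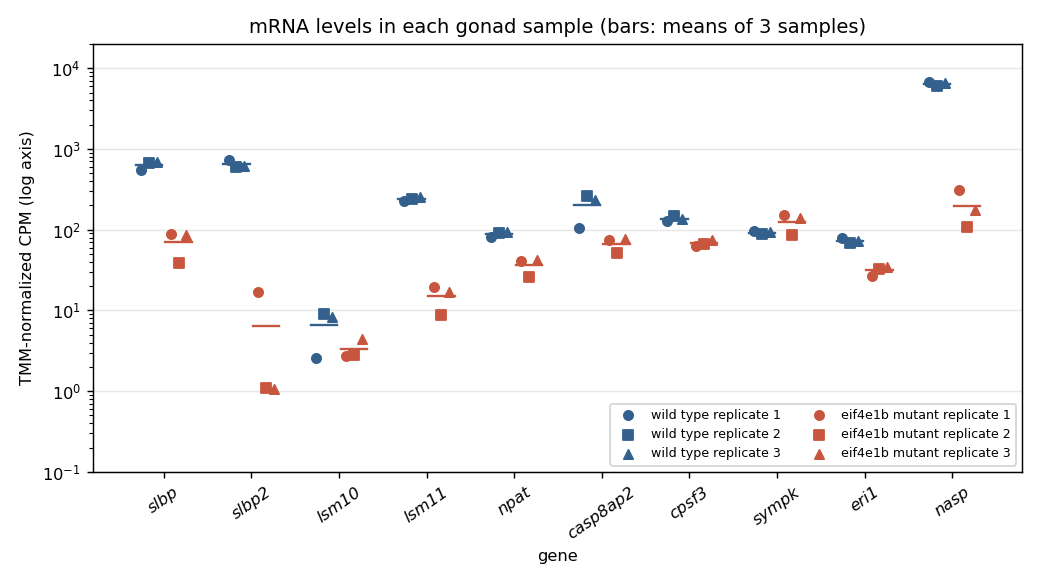
Normalized level of each gene (TMM-scaled CPM, log axis) in each of 3 wild-type (blue) and 3 *eif4e1b* mutant (red) samples, with symbols for replicates and bars for means. The mutant samples lie below the wild-type samples for 8 of the 10 genes and overlap them for *lsm10* and *sympk*. Levels of different genes are not corrected for length.

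Among the stem-loop binding genes, *slbp2* (ENSDARG00000069428) was nearly lost. Its counts were 7999, 6458 and 7211 in wild-type samples and 139, 7 and 8 in mutants. This corresponded to 726, 595 and 624 CPM in wild-type samples and 17.02, 1.09 and 1.07 CPM in mutants. The groups were far apart, and mutant replicate 1 held most of what was left. The log2 fold change was -6.65 (SE 1.25, adjusted p = 0.00371), and -9.25 without mutant replicate 1.

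The general paralog *slbp* (ENSDARG00000100558), which in animal cells accompanies histone mRNAs from processing to translation, fell less. It was at 553, 672 and 689 CPM in wild-type samples, and at 87.5, 38.5 and 85.8 CPM in mutants. Mutant replicate 2 was the lowest, and no mutant sample came near a wild-type one. Its log2 fold change was -3.17 (SE 0.39, adjusted p = 0.00081), a 9.04-fold lower mean level.

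Because both stem-loop binding genes fell, their balance was compared within each library, which needs no scaling between libraries. In wild-type replicates 1, 2 and 3 there were 1.31, 0.886 and 0.906 counts of *slbp2* for each count of *slbp*. In mutant replicates 1, 2 and 3 the same ratio was 0.194, 0.0282 and 0.0124. With 0.5 added to both counts, its log2 went from 0.03 ± 0.32 (SD, n = 3) in wild-type libraries to -4.55 ± 1.99 (SD, n = 3) in mutant samples. This was a difference of -4.58. The exact two-sided permutation p was 0.1, which 3 against 3 cannot go below. The difference was -5.67 without mutant replicate 1 and -3.73 without mutant replicate 3. The *slbp2* mRNA was thus the more reduced of the pair in each mutant library, by amounts that differed widely between these libraries.

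**Figure D2:**
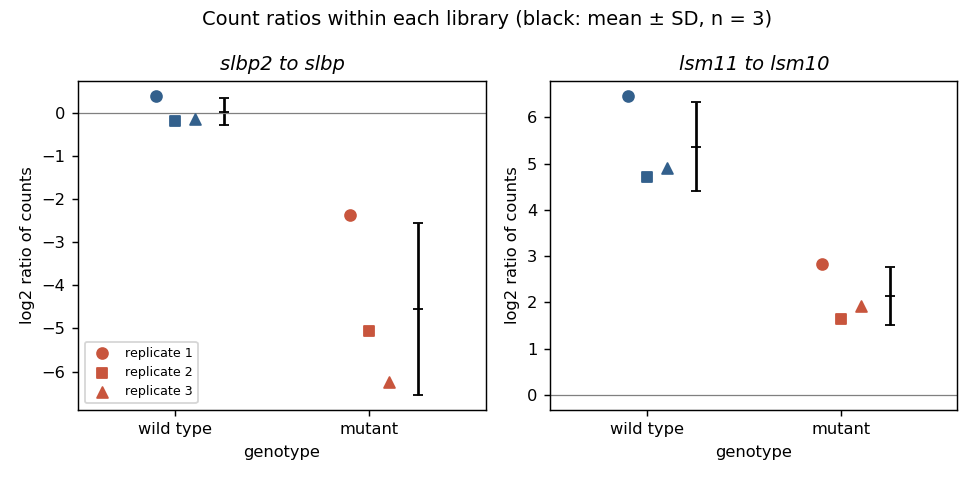
Log2 ratio of *slbp2* to *slbp* counts (left) and of *lsm11* to *lsm10* counts (right) in each library, by genotype, with symbols for replicates and black marks for the mean ± SD of 3 samples. Both ratios are lower in every mutant library, by -4.58 and -3.23 on average.

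Of the U7 snRNP genes, *lsm11* fell and *lsm10* did not pass the test. Lsm11, the larger of the U7-specific ring proteins and the one that contacts FLASH, is encoded by *lsm11* (ENSDARG00000090854), which was at 228, 240.0 and 252 CPM in wild-type samples. It was at 19.6, 8.84 and 16.8 CPM in mutants. The wild-type values were tightly grouped and all were far above the mutant ones, with a log2 fold change of -3.99 (SE 0.34, adjusted p = 0.000322).

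Its ring partner *lsm10* was counted at low levels. ENSDARG00000109563 was at 2.54, 9.12 and 8.39 CPM in wild-type samples and at 2.69, 2.79 and 4.40 CPM in mutants. Wild-type replicate 1, with only 28 counts against 99 and 97 in the other wild-type samples, lay among the mutant samples. The log2 fold change of -1.02 (SE 0.54, adjusted p = 0.129) was not past the threshold. Without that replicate it was -1.45 and past it. The other gene with this symbol, ENSDARG00000101222, held 3 counts in wild-type replicate 1 and 0 in each other sample, and was not tested. In counts of *lsm11* for each count of *lsm10*, the wild-type libraries stood at 89.8, 26.3 and 30.0 and the mutant libraries at 7.27, 3.17 and 3.82. The difference in this log2 ratio, which was computed only after the values had been seen, was -3.23 (exact two-sided permutation p = 0.1).

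At the histone locus, *npat* and *casp8ap2* both fell. The histone gene activator *npat* (ENSDARG00000055548) was at 82.0, 90.2 and 93.6 CPM in wild-type samples and at 40.8, 25.8 and 42.0 CPM in mutants. Its log2 fold change was -1.29 (SE 0.23, adjusted p = 0.0031). The FLASH gene *casp8ap2* (ENSDARG00000022718) was at 104, 262 and 233 CPM in wild-type samples and at 74.0, 51.2 and 75.8 CPM in mutants. Wild-type replicate 1 was again the low one, though still above each mutant sample. The log2 fold change of *casp8ap2* was -1.58 (SE 0.38, adjusted p = 0.00922), and -1.92 without that replicate. Both genes lost their call when scaled by library totals (-0.80 for *npat* and -1.11 for *casp8ap2*) or by upper-quartile factors (-0.60 and -0.88).

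Of the cleavage genes, *cpsf3* fell and *sympk* did not pass the test. For the endonuclease gene *cpsf3* (ENSDARG00000027649), which also cuts ordinary pre-mRNAs before polyadenylation, wild-type samples held 128, 147 and 136 CPM and mutant samples 63.2, 66.6 and 74.7 CPM. The mutant values were about alike and all were below the wild-type values, with a log2 fold change of -1.01 (SE 0.17, adjusted p = 0.00241). The call was lost when scaled by library totals (-0.58) or by upper-quartile factors (-0.32).

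By contrast, the scaffold gene *sympk* (ENSDARG00000059553) was at 96.4, 87.3 and 93.0 CPM in wild-type samples and at 150.2, 85.0 and 139 CPM in mutants. Mutant replicates 1 and 3 were above every wild-type sample and mutant replicate 2 was below them. The log2 fold change of 0.44 (SE 0.25, adjusted p = 0.152) was not past the threshold. It was past it without mutant replicate 2 (0.67) and with upper-quartile factors (1.13).

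The exonuclease gene *eri1* (ENSDARG00000044692) encodes a 3' exonuclease that binds the histone stem-loop next to SLBP and trims histone mRNA ends. It was at 78.0, 69.2 and 72.3 CPM in wild-type samples and at 27.1, 32.9 and 34.6 CPM in mutants. Here mutant replicate 1 was the lowest sample, unlike for the stem-loop binding genes. The fall, a log2 fold change of -1.22 (SE 0.18, adjusted p = 0.00145), was past the threshold except with library totals alone (-0.80).

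**Figure D3:**
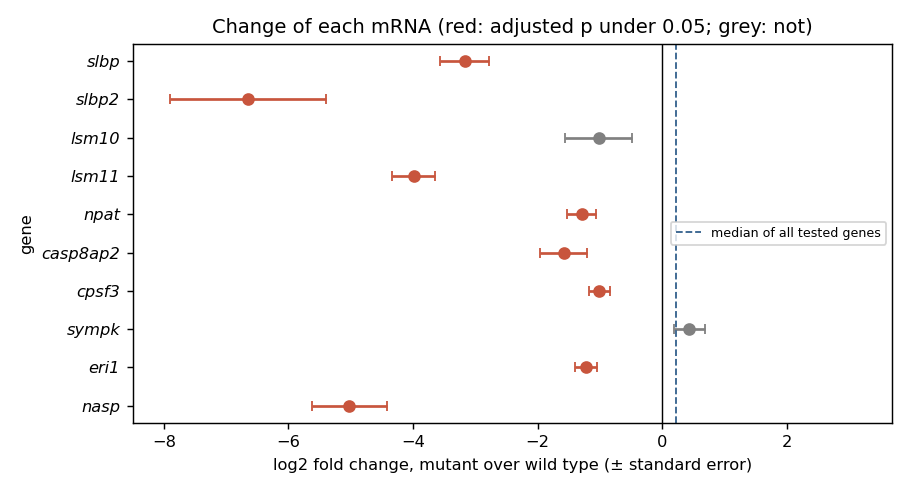
Log2 fold change of mutant over wild-type gonads for each gene with its standard error (3 samples per genotype), in red where the adjusted p was under 0.05. The dashed line is the median of all tested genes, 0.23. *slbp2*, *nasp*, *lsm11* and *slbp* lie below -3 and *sympk* lies at 0.44.

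On the storage side, *nasp* (ENSDARG00000039208), a chaperone that holds a reserve of histones H3 and H4, fell to a small part of its wild-type level. It took 0.570%, 0.553% and 0.572% of all counts in wild-type samples, but 0.0459%, 0.00856% and 0.0222% in mutants. In CPM it was at 6784, 5994 and 6618 in wild-type and at 311, 109 and 175 in mutant samples. Mutant replicate 1 kept the most and replicate 2 the least, and both were far below the lowest wild-type sample. The log2 fold change was -5.02 (SE 0.61, adjusted p = 0.000804), and it lay between -5.54 and -4.70 when each sample was left out in turn.

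Profiles over the 6 samples were compared with those of all other tested genes by the root mean square difference of centred log2(CPM + 0.5) values. The nearest to *slbp2* were *zgc:56231*, *pou5f3* and *chia.4*, at distances of 0.08, 0.10 and 0.12. The pluripotency factor gene *pou5f3* is one of the 17 oocyte markers, and its log2 fold change was -6.87. Nearest to *nasp* were *si:dkey-68o6.5*, *fbxo43* and *fbxo32*, at 0.04, 0.06 and 0.06, and with log2 fold changes of -5.04, -5.02 and -5.16. *fbxo43* encodes Emi2, which holds vertebrate eggs in meiotic arrest. The other stem-loop binding gene, *slbp*, was at a distance of 2.37 from *slbp2*, which ranked it 726 of the 20090 genes compared. Within the set, *nasp* (1.43) and *lsm11* (2.01) were nearer to *slbp2*, and the other genes were further, from 3.25 for *casp8ap2* to 4.09 for *sympk*.

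Markers of oocytes and of S phase moved in the same samples as these genes. The 17 oocyte markers had log2 fold changes from -7.06 to -4.63, and their summed level was 405, 29.8 and 29.3 CPM in mutants. Mutant replicate 1 was the highest of the mutants for *slbp2* too. Of 22 genes of an S phase list, 19 were lower and 2 higher, with a median log2 fold change of -1.92. The S phase sum ranged from 6538 to 6818 CPM in wild-type samples and was 1962, 1094 and 1919 CPM in mutants. Mutant replicate 2 was likewise the lowest mutant sample for 6 of the 10 genes and the highest for none. None of the markers of these lists was at 0 in all samples of a genotype. In pooled gonads, fewer cells of a type and less RNA per cell cannot be told apart, and the part of these markers, or of those of testis somatic cells and other tissues, in the results was not tested.

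Levels were therefore also given relative to the summed marker lists of the same library, a comparison added after the values had been seen. Per 1000 units of the oocyte sum, *slbp2* stood at 45.3, 48.7 and 42.9 in wild-type samples and at 42.0, 36.5 and 36.4 in mutants. Its level thus moved nearly in step with the oocyte list, though its mutant ratios all lay below the wild-type ones. The log2 difference was -0.19, with 0.5 added to the gene's counts but not to the list sum, as for all such differences below. The other 9 genes were higher relative to oocyte markers, with no overlap between genotypes. The oocyte markers had a median log2 fold change of -6.53, against a 5th percentile of -3.07 over all tested genes. Most genes would thus rise relative to this sum, and the share that did was not computed. For *nasp* the ratio per 1000 was 423, 491 and 455 in wild-type and 769, 3672 and 5977 in mutants, a log2 difference of 2.49 that was 3.36 without mutant replicate 1 and 1.88 without mutant replicate 3.

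The S phase sum itself fell in mutants, so changes relative to it are the genes' own changes shifted up, not separate evidence. It also mixes opposite changes. Its genes *mcm3* (log2 fold change 3.22) and *mcm6* (ENSDARG00000057683, 3.44) rose, to 190, 102 and 194 CPM and to 313, 183 and 328 CPM in mutants. Ratios without these genes were not computed. Relative to this sum, 4 genes were lower without overlap between genotypes: *slbp2*, *nasp*, *lsm11* and *slbp*. The log2 differences were -5.78, -3.09, -2.00 and -1.20. Per 1000 units of the S phase sum, *slbp2* stood at 111, 88.9 and 91.5 in wild-type samples and at 8.68, 0.993 and 0.556 in mutants, and its difference was -6.93 without mutant replicate 1 and -4.99 without mutant replicate 3. For *slbp*, wild-type samples stood at 84.6, 100.4 and 101.0 per 1000 units of the S phase sum and mutants at 44.6, 35.2 and 44.7. In 5 genes (*npat*, *lsm10*, *eri1*, *cpsf3* and *sympk*) the mutant ratios all lay above the wild-type ones, and those of *casp8ap2* overlapped. For *lsm10* the gap was very narrow, at 1.373 per 1000 in mutant replicate 1 against 1.363 in wild-type replicate 2. *npat* held 12.5, 13.5 and 13.7 per 1000 in wild-type and 20.8, 23.5 and 21.9 in mutants. Markers of germ cells of either sex (15 genes) summed to 2597 to 3829 CPM in wild-type samples and 1750 to 4128 CPM in mutants. Of these markers, 5 were lower, 3 higher and 7 not past the threshold, with log2 fold changes from -6.45 to 4.12. The sum is thus a mixture of opposite changes. Relative to it, 6 genes were lower, 3 overlapped and *sympk* was narrowly higher. Per 1000 units of this sum, *sympk* stood at 33.7 in mutant replicate 3 and at 33.6 in wild-type replicate 2. Over these 30 ratios the exact permutation test could not give a p under 0.1, so none can pass a threshold of 0.05. How many of all tested genes would lie on the same side of each sum was not computed.

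**Figure D4:**
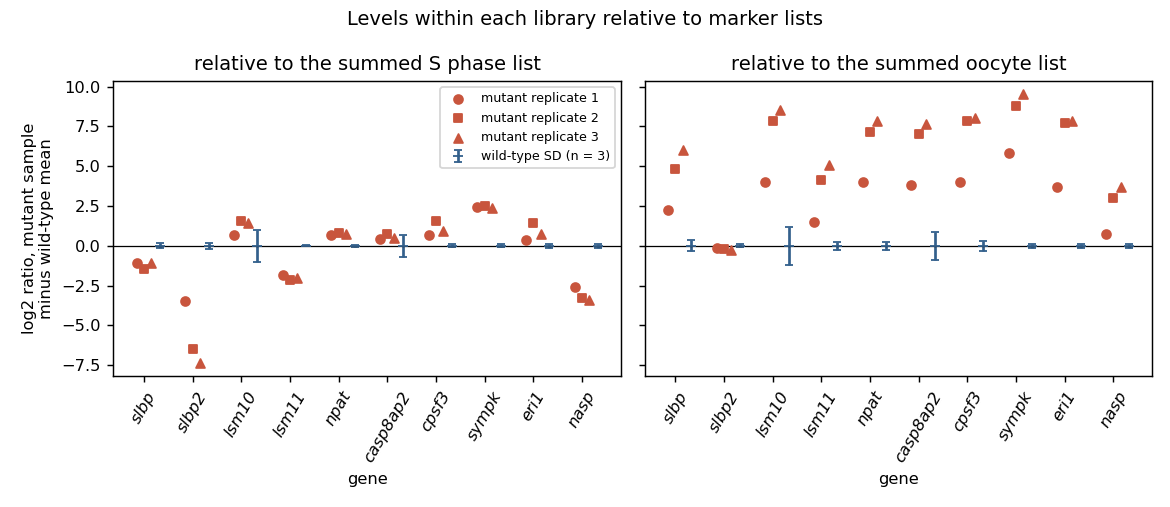
Log2 ratio of each gene to the summed S phase list (left) and the summed oocyte list (right) of the same library, for each mutant sample (red symbols) as a difference from the wild-type mean, with the wild-type SD (n = 3) in blue. Relative to S phase genes, *slbp2*, *nasp*, *lsm11* and *slbp* are below 0. Relative to oocyte genes only *slbp2* is, by -0.19 on average.

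Other genes of the pathway were taken from 4 lists. The counts of each list are to be read against 32.0% lower and 37.5% higher of all 20091 tested genes. Of further 3' end and histone locus factors, 16 of 18 tested genes were lower and none was higher by edgeR at an adjusted p under 0.05, with a median log2 fold change of -1.12. Only *ccne2* was higher at an unadjusted p under 0.05, and none at an adjusted p under 0.05 with DESeq2 or limma-voom. The cyclin gene *ccne1*, whose product activates the kinase that phosphorylates NPAT, was at 554, 541 and 553 CPM in wild-type samples and at 26.1, 11.6 and 12.4 CPM in mutants. It fell by 5.04 on the log2 scale (SE 0.41, adjusted p = 0.000315). Its paralog *ccne2* was at 5.36, 9.68 and 12.9 CPM in wild-type samples and 19.1, 11.9 and 28.1 CPM in mutants and overlapped between genotypes (log2 fold change 1.08, adjusted p = 0.0587). Only *ccne1* of the cyclin E genes thus passed the test.

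The cap-binding gene *ncbp2* (-2.30), the Cajal body scaffold gene *coil* (-1.79) and the Sm ring gene *snrpb* (-1.56) also fell by these log2 fold changes. Among subunits that act with Cpsf3 and symplekin on histone pre-mRNA, *cpsf2* went from 277 ± 19.7 to 143 ± 24.7 CPM and *cstf2* from 126 ± 5.61 to 77.4 ± 7.06 CPM (± SD of 3 samples). Both were past the threshold with TMM factors, with log2 fold changes of -0.96 and -0.71 and adjusted p-values of 0.00764 and 0.00855. The call of *cpsf3*, whose fall was slightly larger, was lost when scaled by library totals or by upper-quartile factors. Whether *cpsf2* and *cstf2* kept theirs is not given here. With TMM factors, *sympk* was then the one gene of this complex named here that did not pass.

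Factors that act on finished histone mRNAs in translation and decay were lower in 11 of 15 tested genes and higher in none by edgeR, with a median log2 fold change of -0.90. None of these 15 was higher at an unadjusted p under 0.05 either, or by DESeq2 or limma-voom. The symbols *mif4gda* and *mif4gdb* of this list were not matched. Of the genes named *MIF4GD*, which are outside these counts, ENSDARG00000102080 was higher by edgeR at few counts (log2 fold change 1.99, adjusted p = 0.043). The other, ENSDARG00000102578, did not pass the threshold. The Lsm1-7 ring binds the oligouridylated ends of histone mRNAs under decay. Its gene *lsm2* (ENSDARG00000103066) held 1060, 553 and 844 counts in wild-type samples and 25, 7 and 9 counts in mutants, with a log2 fold change of -5.33. Mean levels went from 66.6 ± 6.04 to 9.73 ± 0.946 CPM for *lsm1* and from 217 ± 3.60 to 38.4 ± 3.34 CPM for its partner *patl1* (± SD of 3 samples), and both fell. Not all of the ring genes did. The log2 fold changes of *lsm3* (-1.08) and *lsm4* (-0.92) were past the threshold, and those of *lsm5* (-0.78), *lsm6* (-0.12) and *lsm7* (0.12) were not. *eri2*, a relative of *eri1*, had a log2 fold change of -2.08.

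Cleavage and polyadenylation factors of ordinary mRNAs were lower in 11 and higher in 1 of 15 tested genes, with a median log2 fold change of -0.69. The fallen genes included *cstf1* (-2.57), *papolg* (-2.55), *cstf3* (-1.88) and *cpsf4* (-1.48), given as log2 fold changes. The higher gene was the polyA polymerase gene *papola*, at 34.3, 22.9 and 25.6 CPM in wild-type samples and 80.2, 72.6 and 87.5 CPM in mutants (log2 fold change 1.54, SE 0.21, adjusted p = 0.00126). Its relative *papolg* was at 275, 309 and 319 CPM in wild-type samples and 61.1, 30.1 and 63.5 CPM in mutants, so the polyA polymerase genes moved in opposite directions.

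Among histone chaperones matched by symbol, 24 of 29 tested genes were lower. None of these 29 was higher by edgeR, whether at an adjusted or an unadjusted p under 0.05, or by DESeq2 or limma-voom. Their median log2 fold change was -1.62. The symbols *ssrp1a* and *ssrp1b* of this list were not matched. Of the genes named *SSRP1*, which are outside these counts, ENSDARG00000016994 was higher by edgeR (log2 fold change 2.88, adjusted p = 0.00144). The other, ENSDARG00000037397, was lower (-1.23). The largest fall of the list was that of the egg nucleoplasmin gene *npm2b*, at 1354, 1222 and 1297 CPM in wild-type samples and 45.9, 10.4 and 13.5 CPM in mutants, a log2 fold change of -5.79. Its relative *npm2a* had a log2 fold change of -4.10, the H2A.Z chaperone gene *anp32e* one of -2.09, and *ubn2a* and *ubn2b*, which belong to the H3.3 deposition complex, -1.91 and -1.82. Other listed genes of that complex ranged widely. *ubn1* (-4.81) and *hira* (-1.31) were lower, and *cabin1* (-0.09) did not pass the threshold. The somatic nucleoplasmin gene *npm1a* averaged 727 ± 162 CPM in wild-type samples and 815 ± 263 CPM in mutant gonads (± SD of 3 samples) and overlapped between genotypes. Other genes of this family, *npm1b* (-0.74) and *npm3* (-1.12), were lower by these log2 fold changes, without overlap. The share of lower genes in these 4 lists, from 73.3% to 88.9%, is to be read against 32.0% of all tested genes and beside the lower S phase and oocyte markers, and was not tested. When scaled by library totals, 5 of 18, 3 of 15, 4 of 15 and 13 of 29 genes of the lists were lower, in the order given here. Of all 20091 tested genes, 3740 were lower with that scaling. The lists other than the chaperones were then much nearer to the share of all tested genes.

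**Figure D5:**
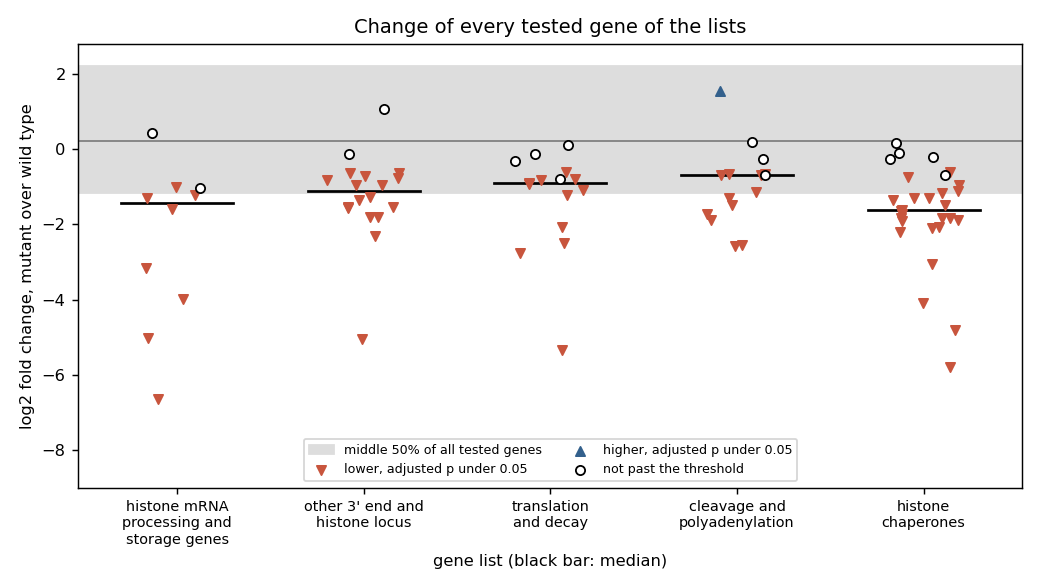
Log2 fold change of mutant over wild-type gonads for every tested gene of the 5 lists, with filled symbols for an adjusted p under 0.05 and bars for the list medians. The grey band holds the middle 50% of all tested genes, from -1.16 to 2.21, around their median of 0.23. The list medians lie between -1.62 and -0.69.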

How the data were processed

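RNA of pooled gonads was sequenced from stranded libraries depleted of ribosomal RNA, and the authors deposited unnormalized read counts for each gene on the GRCz11 build. The submitters' processing notes name Trim Galore 0.5.0, Bowtie2 2.3.4.1, featureCounts and Subread 1.6.2. The annotation release, the strand setting and how multi-mapped reads were counted are not given in the sources used here, so reads of near-identical or overlapping genes may be shared between them. Coordinates and sequences were not analysed here.

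Genotypes were compared with edgeR 4.0.16 in R 4.3.3 (quasi-likelihood test, TMM factors, genotype as the only term) over the genes passing its default filter (minimum count 10, minimum total 15). P-values were Benjamini-Hochberg adjusted over all 20091 tested genes. The fit was also run on simulated counts with far fewer changed genes, balanced between directions. That simulation does not test how the scaling copes with the composition of the mutant samples. Alternatives used DESeq2 1.42.0, limma 3.58.1 and scipy 1.17.1. Replicates differed by more than sampling noise (chi-square over its degrees of freedom between 11.5 and 168), and each biological replicate counted as 1 sample.

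Symbols came from a table of gene names (29201 of 32520 genes) and from the supplementary tables of the study. The lists held 18 of 23, 15 of 21, 15 of 16 and 29 of 37 symbols that were matched for further 3' end and histone locus factors, translation and decay factors, polyadenylation factors and chaperones. Genes named are the 10 genes, *eif4e1b*, up to 4 genes per list and direction with the smallest p and no overlap between genotypes, and the 3 nearest profiles to *slbp2* and *nasp*. *cpsf2*, *cstf2*, *ccne2*, *npm2b*, *npm1a*, *npm1b*, *npm3* and *asf1ba* were named after their values were seen. So were *lsm3*, *lsm4*, *lsm5*, *lsm6*, *lsm7*, *ubn1*, *hira*, *cabin1*, *mcm3* and *mcm6*. Genes and lists were chosen with earlier results of these data known. Marker lists of ovarian somatic cells, spermatids, skeletal muscle, red blood cells and skin were also summed. Their median log2 fold changes were 1.36, 1.21, 3.51, 3.91 and 4.16. The ovarian somatic list held 6 of 11 symbols, without *cyp19a1a* and *foxl2a*, and 3 of its 5 tested genes were higher. Of 12 tested spermatid genes, 5 were higher, 3 lower and 4 not past the threshold.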

Additional observations from a re-analysis of the deposited data

How the results depend on the processing

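The falls of *slbp2*, *nasp*, *lsm11*, *slbp* and *eif4e1b* passed the threshold with each alternative that was run, and no gene of the 10 changed direction. With library totals alone, *npat* (-0.80), *casp8ap2* (-1.11), *cpsf3* (-0.58) and *eri1* (-0.80) were no longer past it. With upper-quartile factors, *npat* (-0.60), *casp8ap2* (-0.88) and *cpsf3* (-0.32) were not, and *sympk* was higher (1.13). These scalings moved the median of all 20091 tested genes up, to 0.65 and 0.92, and left 3740 and 4001 of these genes lower. The lower genes of the 10 then numbered 4 with library totals and 5 with upper-quartile factors, and 1 was higher with the latter. In the lists, library totals left 5 of 18 further 3' end and histone locus factors and 3 of 15 translation and decay factors lower. They also left 4 of 15 polyadenylation factors and 13 of 29 chaperones lower, and 1 histone locus factor higher. Upper-quartile factors left 8, 4 and 6 of the first 3 lists lower and 2, 1 and 2 higher. Leaving out each sample in turn gave 8 to 9 lower and 0 to 1 higher of the 10 genes, 7 to 10 lower polyadenylation factors, and 13 to 16 lower and 0 to 1 higher histone locus factors. In this way *lsm10* ranged from -1.46 to -0.78 and passed without wild-type replicate 1 (-1.45), *sympk* ranged from 0.22 to 0.67 and passed without mutant replicate 2, and *slbp2* ranged from -9.25 to -6.09. The *slbp2* to *slbp* ratio ranged from -5.67 to -3.73. The labels do not say whether replicate numbers pair the samples. Deviations from the group means correlated at 0.129, -0.198 and -0.051 over genes for the 3 same-numbered pairs. Pairs with unlike numbers ranged from -0.427 to 0.418, so this check cannot decide whether samples were paired. With a replicate block, 8 of the 10 genes were lower as without it and 7 polyadenylation factors were, and the cause was not tested. Summing both *lsm10* genes, an alternative chosen after seeing the data, left *lsm10* short of the threshold. A sum over several *nasp* genes was not run, because 1 gene carries the symbol. Low counts limit *lsm10*, which held 18 to 99 counts per sample.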

Other observations

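A few genes carry human-style symbols in the table of gene names and were looked up after the values had been seen. The lists had named *mif4gda*, *mif4gdb*, *ssrp1a*, *ssrp1b* and *asf1bb*, which were not matched. The genes looked up are therefore in no list count. Their values are given in replicate order, with edgeR results. Of the genes named *MIF4GD*, the counterpart of the human protein SLIP1 that joins SLBP to the translation machinery, ENSDARG00000102578 held 261, 101 and 126 counts in wild-type samples and 86, 37 and 91 counts in mutants. It did not pass the threshold (log2 fold change -0.62, SE 0.46, adjusted p = 0.256). ENSDARG00000102080 held few counts, 17, 2 and 4 in wild-type and 24, 16 and 22 in mutant samples, and was higher in mutant gonads (1.99, SE 0.72, adjusted p = 0.043).

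The genes named *SSRP1*, which encodes a subunit of the histone chaperone FACT, moved in opposite directions. ENSDARG00000037397 held 5675, 5916 and 6355 counts in wild-type and 2122, 1188 and 1824 counts in mutants, with a log2 fold change of -1.23 (SE 0.24, adjusted p = 0.00447). ENSDARG00000016994 held 39, 14 and 39 counts in wild-type and 174, 110 and 168 counts in mutants, and rose by a log2 fold change of 2.88 (SE 0.42, adjusted p = 0.00144). A gene named *ASF1B*, ENSDARG00000043713, held 634, 464 and 622 counts in wild-type and 332, 192 and 273 counts in mutant samples (-0.53, adjusted p = 0.0539), while *asf1ba* fell by 3.05 on the log2 scale. Reads shared between such paralogs were not examined here.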
